A study of Mus musculus with 8 samples.

Results

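The 10 genes described here are the members of the interleukin-1 (IL-1) family of cytokines and receptors that were chosen by gene symbol, Il1a, Il1b, Il33, Il18, Il1rn, Il1r1, Il1r2, Il1rap, Il1rl1 and Il18r1, out of 27179 genes in the table. All 10 were found. RNA was sequenced from 8 subcutaneous tumors of the mouse colon carcinoma line C26, each grown in an adult male CD2F1 mouse and collected once the host was cachectic, with more than 15% of its body weight lost. In the cxC26 scr group, 4 tumors arose from the cachectic C26 line carrying Cas9 and a scrambled guide RNA. In the cxC26 IL6KOs1 group, 4 tumors arose from subclone 1 of the same line after CRISPR/Cas9 disruption of Il6, the gene for the cytokine IL-6. The knockout group is 1 clone and the control line is not, so the effect of the knockout and that of the clone cannot be told apart. More cells were injected for the knockout tumors and they grew for longer, and these differences cannot be told apart from the knockout either. The host cells in both groups kept their own Il6. The question addressed here is how the tumor levels of IL-1 family transcripts differ when the cancer cells lack IL-6.

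IL-1 family cytokines are made by macrophages, neutrophils, epithelial cells and stromal cells, mostly without a secretion signal, and IL-1 beta and IL-18 are cut to their active forms by the inflammasome protease caspase-1. Each cytokine binds a receptor chain, the same for IL-1 alpha and IL-1 beta, and then an accessory chain. The paired intracellular domains recruit MyD88 and IRAK kinases, which lead to NF-kB. The system carries its own brakes, among them a receptor antagonist, a decoy receptor, soluble receptor forms and a binding protein for IL-18. In tumors these cytokines are known for shaping which myeloid and lymphoid cells are present.

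Reads of the disrupted gene, Il6, numbered 356, 326, 376 and 438 in the controls and 64, 56, 86 and 59 in the knockouts, a log2 fold change of -2.45 (SE 0.165, limma adjusted p = 1.76e-06). Reads on genes ranged from 14158989 to 17048062 per tumor, and the groups overlapped in depth. Of 8 epithelial markers, the colon keratin Krt20 was abundant in every tumor, at 17390 to 22185 reads, and Krt8, Krt19, Epcam and Vil1 had at most 15 reads in any tumor. Krt18 had 21 to 30 reads per control tumor and 140 to 282 per knockout tumor, and Cdh1 had 17 to 37 and 45 to 87. The colon transcription factor gene Cdx2 had 17 to 34 reads per control tumor and at most 1 per knockout tumor, so the groups differed in epithelial markers. Knockout tumor 1 stood apart. Its summed level of 4 pan-leukocyte markers was 455 CPM (read counts scaled to library size) against 211 to 278 in the other knockout tumors, and its mast cell markers summed to 27.1 CPM against 141 to 151. Control tumor 1 also held 59 reads of the keratinocyte gene Krt5, which had at most 3 reads in any other tumor. Where leaving out 1 tumor changes the call on a member, that is stated with the result or in the closing section. In bulk tumor RNA, fewer cells of a type and less RNA per cell cannot be told apart.

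Of the 10 members, 9 passed the expression filter (1 CPM or more in 4 or more tumors), and Il1a did not. With limma and a Benjamini-Hochberg adjustment over all 13262 genes tested, 5 members were called at a threshold of 0.05, beside 39.8% of all genes tested. Il1rn, Il18 and Il18r1 were higher in the knockout tumors, beside 19.1% of all genes, and Il1r1 and Il33 were lower, beside 20.7%. Il1b, Il1r2, Il1rap and Il1rl1 were not called. The groups did not overlap for 4 members (Il1r1, Il33, Il18 and Il18r1), beside 37.1% of all genes tested. Il18r1 passed the filter only through the knockout tumors, so its place in these counts was set by the filter in part. The median log2 fold change of the 9 members was -0.15, beside -0.0029 for all genes tested. Against a background of this size, the number of members called is not a result about the family.

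**Figure D1:**
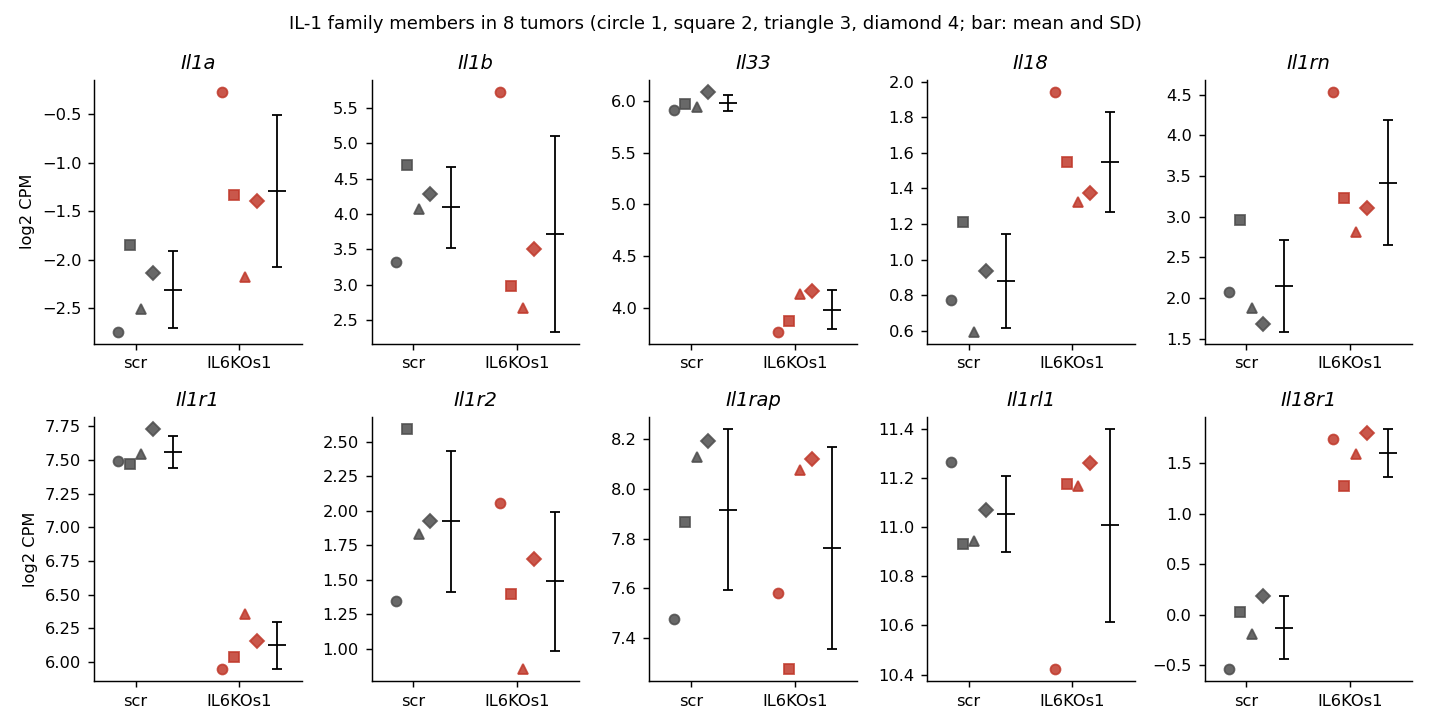
Log2 CPM (vertical axes, each on its own scale) of the 10 members in the 4 cxC26 scr tumors (gray) and the 4 cxC26 IL6KOs1 tumors (red). Marker shape gives the tumor number, and the black bar gives the mean and SD of each group. Il33 and Il1r1 lie lower in every knockout tumor, Il18 and Il18r1 lie higher, and knockout tumor 1 is far from the other knockout tumors for Il1b, Il1rn and Il1rl1.

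Among the ligands, Il33 changed most. Il33 encodes a nuclear cytokine released from damaged epithelial and stromal cells, and lies at chr19:29925113-29960718 on the plus strand (mm10). It measured 60.3, 62.7, 61.5 and 68.0 CPM in the control tumors and 13.6, 14.6, 17.5 and 17.8 CPM in the knockout tumors. Every knockout tumor was below every control tumor, and the tumors within a group lay close together. The mean was 5.98 ± 0.08 log2 CPM (SD, n = 4) in the controls and 3.98 ± 0.19 (SD, n = 4) in the knockout tumors. This gave a log2 fold change of -1.997 (SE 0.110, 95% interval -2.24 to -1.76, limma adjusted p = 6.48e-07), so that the knockout tumors held 25.1% of the control level. Genes of chromosome 19 had a median log2 fold change of 0.33, and relative to it Il33 was lower by more, at -2.33. Leaving out each tumor in turn kept the log2 fold change between -2.06 and -1.93.

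Because Il33 showed the largest decrease among the members, its annotated starts are shown from RefSeq (GRCm38.p6, the build of the authors' mm10), each from 250 bases before the start to 50 bases after it, plus strand. Capitals mark matches to 4 motifs searched on both strands: C/EBP as TTGCNNAA, AP-1 as TGANTCA, STAT as TTCNNNGAA, and an NF-kB motif given by its name. Of all 32851 RefSeq windows of this length, 10.8% held the C/EBP letters, 7.81% the AP-1 letters, 8.3% the STAT letters and 4.51% the NF-kB motif. A match is a description of the letters. The files do not say which start the tumors used.
Il33 start 1, chr19:29924863-29925162: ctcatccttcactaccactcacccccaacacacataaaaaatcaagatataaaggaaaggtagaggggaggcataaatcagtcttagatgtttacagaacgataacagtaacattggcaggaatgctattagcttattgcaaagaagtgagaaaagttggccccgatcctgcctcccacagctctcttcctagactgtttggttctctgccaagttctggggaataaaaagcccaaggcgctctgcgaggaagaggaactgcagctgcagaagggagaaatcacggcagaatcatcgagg
Il33 start 2, chr19:29945540-29945839: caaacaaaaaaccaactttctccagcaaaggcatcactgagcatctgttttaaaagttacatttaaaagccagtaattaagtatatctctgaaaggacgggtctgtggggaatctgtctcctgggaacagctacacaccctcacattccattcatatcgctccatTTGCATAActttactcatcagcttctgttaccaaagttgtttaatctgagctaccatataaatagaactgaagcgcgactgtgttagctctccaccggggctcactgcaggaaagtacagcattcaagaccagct
The second window held the C/EBP letters from base -85 to base -78, and the first held no match to any of the 4.

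Il1b, the gene for IL-1 beta (chr2:129364569-129371164, minus strand), was not called. It measured 10.01, 25.8, 16.8 and 19.5 CPM in the control tumors and 52.8, 7.87, 6.34 and 11.3 CPM in the knockout tumors. Knockout tumor 1 was the highest of all 8, while knockout tumors 2 and 3 were the lowest. It differed by -0.37 on the log2 scale (SE 0.545, 95% interval -1.56 to 0.82, limma adjusted p = 0.615), an interval that leaves room for a decrease or an increase. Without knockout tumor 1 the log2 fold change was -1.04 and the limma adjusted p was 0.0123, so the call on Il1b rests on that tumor. Knockout tumor 1 was also the highest of the 8 in the summed leukocyte and macrophage markers, and the part of those cells in its Il1b level was not tested.

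Il1a, the gene for IL-1 alpha (chr2:129299609-129310186, minus strand), was near the limit of detection. The control tumors had 2, 4, 2 and 3 reads and the knockout tumors 13, 5, 3 and 5 reads. The groups overlapped, and the difference of mean log2 CPM was 1.02 (two-sided exact permutation p = 0.0857, with 0.0286 the smallest p that 4 tumors against 4 allow). No tumor reached 1 CPM, so a difference in Il1a could not be settled at this depth. A lncRNA that overlaps it, Gm14023, had 20 reads over the control tumors and 6 over the knockout tumors, and the strand setting of the counting is not given in the sources used here.

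Il18 encodes a cytokine that drives interferon gamma in T and NK cells (chr9:50554700-50581841, plus strand). It had 28, 37, 21 and 29 reads in the control tumors and 62, 40, 39 and 37 reads in the knockout tumors. On the CPM scale these were 1.68, 2.29, 1.48 and 1.88 against 3.82, 2.89, 2.47 and 2.55, so the lowest knockout tumor lay just above the highest control tumor. This was a log2 fold change of 0.67 (SE 0.242, limma adjusted p = 0.0460), close to the threshold. The call was lost in 11 of 16 alternative settings, 7 of the 8 that leave out a tumor among them, where the limma adjusted p ran from 0.0402 to 0.119. Bco2 and Tex12 overlap the gene and had 33 and 3 reads over the control tumors, against 44 and 3 over the knockout tumors.

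The brake on IL-1 moved the other way from Il33. Il1rn encodes the IL-1 receptor antagonist, which occupies IL1R1 without recruiting the accessory chain (chr2:24336860-24351491, plus strand). It measured 4.20, 7.72, 3.65 and 3.18 CPM in the control tumors and 23.1, 9.31, 6.98 and 8.56 CPM in the knockout tumors. Knockout tumor 1 was again the highest, control tumor 2 lay above knockout tumor 3, and the groups overlapped. Its log2 fold change was 1.27 (SE 0.365, 95% interval 0.47 to 2.07, limma adjusted p = 0.0167). Without knockout tumor 1 it was 0.89 (adjusted p = 0.0225), and without control tumor 4 it was 1.11 and no longer called (adjusted p = 0.0524). All 4 pan-leukocyte markers and all 9 macrophage and monocyte markers were called higher in the knockout tumors, beside 19.1% of all genes tested. Mrc1, a macrophage marker, only just passed (limma adjusted p = 0.0499) and lost its call in 6 of the 8 fits that leave out a tumor. The summed levels of both lists did not overlap. They were 119 to 142 CPM against 211 to 455 CPM for pan-leukocyte markers, and 498 to 655 CPM against 977 to 1433 CPM for macrophage and monocyte markers. Among the latter, Ly6c2 had 7 to 18 reads per control tumor and passed the filter in part through the knockout tumors. Whether more leukocytes carried the higher Il1rn was not tested. Annotated Il1rn transcripts code for 178, 162, 159 and 52 residues, secreted and intracellular forms among them, and the gene-level reads sum over all of these.

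Its upstream start is shown because it held an AP-1 match, from base -141 to base -135 (capitals), which neither of the other 2 annotated starts held.
Il1rn start 1, chr2:24336610-24336909, plus strand: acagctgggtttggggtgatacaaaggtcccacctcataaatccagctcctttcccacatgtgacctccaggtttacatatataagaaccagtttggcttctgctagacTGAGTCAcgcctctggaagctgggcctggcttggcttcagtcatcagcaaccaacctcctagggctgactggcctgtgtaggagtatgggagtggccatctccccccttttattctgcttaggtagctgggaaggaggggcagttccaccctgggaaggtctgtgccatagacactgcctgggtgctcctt

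Among the receptors, the signalling receptor of IL-1 fell. Il1r1 encodes the chain that binds IL-1 alpha and IL-1 beta (chr1:40222480-40316201, plus strand). It measured 179, 177, 187 and 212 CPM in the control tumors and 61.7, 65.6, 81.7 and 71.4 CPM in the knockout tumors. Every knockout tumor was below every control tumor. The mean was 7.56 ± 0.12 log2 CPM (SD, n = 4) in the controls and 6.12 ± 0.18 (SD, n = 4) in the knockout tumors, 37.0% of the control level. The log2 fold change was -1.43 (SE 0.101, limma adjusted p = 2.49e-06), and it lay between -1.51 and -1.38 with each tumor left out in turn. Genes of chromosome 1 had a median log2 fold change of -0.34, and with that median removed Il1r1 stood at -1.11 and was still called (adjusted p = 9.71e-06).

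The windows around 2 annotated starts of Il1r1 are shown because the gene's level fell by more than its chromosome's median. The first held the C/EBP letters from base -133 to base -126. The second was the only one among 19 windows of the 12 genes searched (the 10 members, Il1rl2 and Il18rap) with the NF-kB motif, on the minus strand from base -232 to base -223.
Il1r1 start 1, chr1:40224830-40225129, plus strand: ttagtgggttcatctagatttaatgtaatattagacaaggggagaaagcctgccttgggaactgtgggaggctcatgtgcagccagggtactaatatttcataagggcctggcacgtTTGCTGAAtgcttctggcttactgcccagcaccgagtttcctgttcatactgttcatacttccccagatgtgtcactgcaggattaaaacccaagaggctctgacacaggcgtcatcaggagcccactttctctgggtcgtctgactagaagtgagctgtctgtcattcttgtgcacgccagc
Il1r1 start 2, chr1:40266336-40266635, plus strand: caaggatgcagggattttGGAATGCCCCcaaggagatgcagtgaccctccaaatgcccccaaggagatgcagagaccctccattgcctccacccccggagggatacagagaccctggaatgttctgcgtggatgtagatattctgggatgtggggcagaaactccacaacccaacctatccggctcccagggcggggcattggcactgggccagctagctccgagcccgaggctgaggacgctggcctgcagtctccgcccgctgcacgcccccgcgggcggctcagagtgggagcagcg

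The decoy receptor Il1r2, which binds IL-1 and has no signalling domain (chr1:40084692-40125230, plus strand), was low in both groups. It had 42, 97, 50 and 58 reads in the control tumors and 67, 36, 28 and 45 in the knockout tumors, with overlapping groups. Its log2 fold change was -0.43 (SE 0.311, 95% interval -1.11 to 0.25, limma adjusted p = 0.289). A decrease or a small increase is within that interval.

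Il1rap, the accessory chain shared by the receptors of IL-1, IL-33 and IL-36 (chr16:26581509-26730128, plus strand), measured 178, 233, 279.7 and 293 CPM in the control tumors and 191, 155, 269.6 and 278 CPM in the knockout tumors. The groups overlapped. The log2 fold change was -0.15 (SE 0.198, 95% interval -0.59 to 0.28, limma adjusted p = 0.566). Its annotated transcripts code for 570, 685, 640 and 360 residues, among them membrane and soluble forms that the gene-level reads do not separate.

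Il1rl1 encodes ST2, the IL-33 receptor (chr1:40404864-40465418, plus strand), and was the most abundant member by far. It measured 2462, 1953, 1970.3 and 2148 CPM in the control tumors and 1373, 2314, 2299.9 and 2453 CPM in the knockout tumors. Knockout tumor 1 was the lowest of the 8, and the other 3 knockout tumors lay within the range of the controls. The log2 fold change was -0.046 (SE 0.181, 95% interval -0.44 to 0.35, limma adjusted p = 0.862), and it was 0.15 without knockout tumor 1 (adjusted p = 0.406). Its sign also turned with the chromosome median removed, to 0.28 (adjusted p = 0.251). Mast cells are known for carrying ST2. All 6 mast cell markers tested were called higher in the knockout tumors, beside 19.1% of all genes tested. Summed over the list of 8, mast cell markers were 10.1 to 15.0 CPM in the controls against 27.1 to 151 CPM in the knockout tumors. Of the markers tested, Cpa3 and Hdc had 13 to 23 and 13 to 33 reads per control tumor and passed the filter in part through the knockout tumors. In the control tumors the defining marker Ms4a2 had 0 reads, and Kit, Cma1, Mcpt4 and Tpsb2 had 24 to 77 reads per tumor. In the knockout tumors Ms4a2 had 3 to 14 reads. The part of mast cells in the Il1rl1 level was not tested. Transcripts of Il1rl1 code for 567 residues (membrane ST2) or 337 residues (soluble ST2), and a shift between the forms would not be seen in gene-level reads. The first window searched for Il1rl1 begins at 40429320, downstream of the gene start given above. From base -34 to base -27 this window held the same 8 letters of the C/EBP match that the second Il33 start held.
Il1rl1 start 1, chr1:40429320-40429619, plus strand: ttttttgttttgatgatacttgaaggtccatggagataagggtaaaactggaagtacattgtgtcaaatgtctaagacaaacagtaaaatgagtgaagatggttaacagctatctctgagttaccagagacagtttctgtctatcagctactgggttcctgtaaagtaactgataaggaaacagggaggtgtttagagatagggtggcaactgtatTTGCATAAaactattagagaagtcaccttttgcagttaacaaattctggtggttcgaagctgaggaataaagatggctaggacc

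Il18r1, the chain that binds IL-18 and is carried by T, NK and mast cells among others (chr1:40465552-40500854, plus strand), showed the largest increase among the members. It had 11, 16, 12 and 17 reads in the control tumors and 54, 33, 47 and 50 reads in the knockout tumors. Every knockout tumor was above every control tumor. The increase was 1.73 on the log2 scale (SE 0.266, 95% interval 1.15 to 2.31, limma adjusted p = 0.000465), and it was 2.06 with the chromosome 1 median removed (adjusted p = 0.000151). Only 2 control tumors reached 1 CPM, so the gene was tested through the group in which it was high, and its p-value is to be read with that. All 6 T and NK cell markers tested were also called higher, beside 19.1% of all genes tested. Summed over the list of 10, T and NK cell markers were 1.55 to 6.12 CPM in the controls against 17.9 to 47.9 CPM in the knockout tumors. Of the 6 tested, Cd3g, Cd8a, Klrk1 and Nkg7 had at most 5 reads in any control tumor. These passed the filter only through the knockout tumors, so that they were tested only because they were higher there. Cd4 and Gzmb, at 8 to 24 and 7 to 47 reads per control tumor, also needed knockout tumors to pass. That all 6 were called higher was thus set by the filter in part. The mast cell sums were given above, and the part of these cells in the Il18r1 level was not tested. The most downstream of its 3 annotated starts is shown for its pair of STAT matches, from base -219 to base -211 and from base -152 to base -144, beside a single STAT match in the window of Il1r2 and none in the other 17 windows.
Il18r1 start 3, chr1:40465756-40466055, plus strand: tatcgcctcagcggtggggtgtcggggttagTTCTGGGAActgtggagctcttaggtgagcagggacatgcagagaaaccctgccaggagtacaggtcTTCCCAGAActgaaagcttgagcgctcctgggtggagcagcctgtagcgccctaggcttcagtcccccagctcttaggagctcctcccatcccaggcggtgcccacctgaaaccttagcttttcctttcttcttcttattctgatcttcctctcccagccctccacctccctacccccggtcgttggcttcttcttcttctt

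Of the 11 other family genes listed, Il36a, Il36rn, Il1f10, Il1rapl1 and Il1rapl2 had no read in any tumor, Il36b had 1 read in all, and Il36g had 1 to 5 reads per tumor. The remaining 4 were tested, and 2 were called, both lower. Of all genes tested, 39.8% were called in either direction and 20.7% lower. Il1rl2, the IL-36 receptor, had 338, 323, 404 and 320 reads in the control tumors and 82, 70, 112 and 89 in the knockout tumors (log2 fold change -1.93, SE 0.166, limma adjusted p = 9.51e-06). Il18rap, the signalling partner of Il18r1, measured 82.2, 90.9, 110.3 and 103 CPM against 32.1, 31.8, 37.5 and 44.2 CPM (log2 fold change -1.41, SE 0.127, limma adjusted p = 1.36e-05). The 2 chains of the IL-18 receptor thus moved in opposite directions, with the binding chain higher and the accessory chain lower in every knockout tumor than in every control tumor. Their levels were far apart. Per kb of exon, Il18r1 had 0.187 CPM in the controls and 0.63 in the knockout tumors, against 19.8 and 7.45 for Il18rap. Il18r1 was also tested through the knockout tumors, as said above. Il18bp, the secreted inhibitor of IL-18, had 182 reads in knockout tumor 1, 28 to 53 in the other knockout tumors and 45 to 71 in the controls (log2 fold change 0.077, adjusted p = 0.903). Sigirr, an inhibitory receptor, differed by 0.24 (SE 0.105, adjusted p = 0.0897) and was not called. It was called higher with the chromosome medians removed (0.51, adjusted p = 0.00296), under quantile normalization (0.29, adjusted p = 0.0435) and without knockout tumor 4 (0.33, adjusted p = 0.0153).

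**Figure D2:**
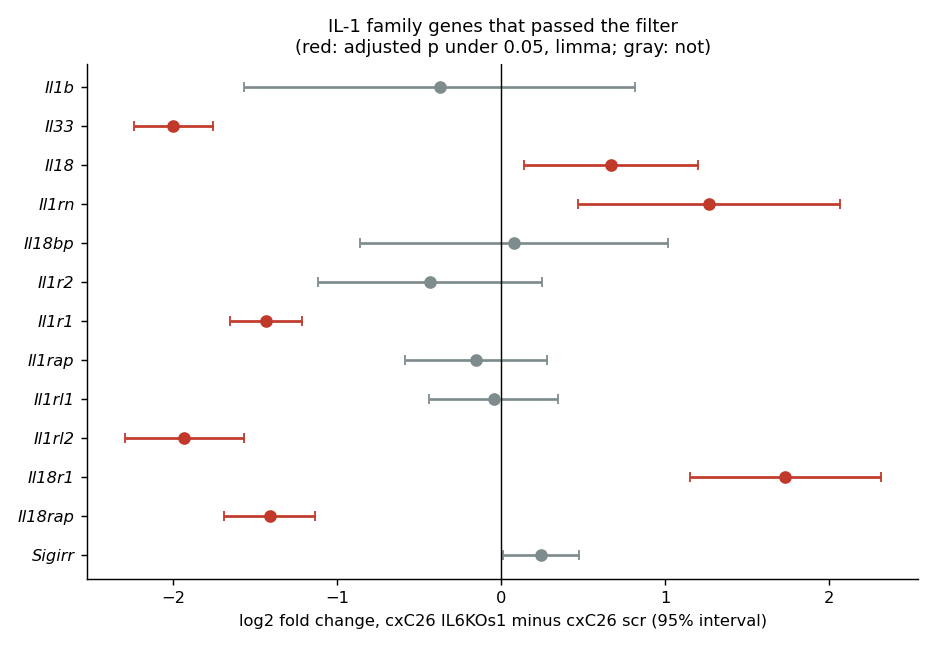
Log2 fold change (horizontal axis, cxC26 IL6KOs1 minus cxC26 scr, 4 tumors each) with its 95% interval for the 9 members and 4 other family genes that passed the filter. Red points had a limma adjusted p under 0.05. Il33, Il1rl2, Il1r1 and Il18rap lie to the left of 0, Il18r1, Il1rn and Il18 to the right, and the widest interval is that of Il1b.

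Of the 10 members, 4 lie in the IL-1 receptor gene cluster on chromosome 1, which spans 467.0 kb in the order Il1r2, Il1r1, Il1rl2, Il1rl1, Il18r1 and Il18rap. The genes of the cluster did not all move in the same direction. Il1r1, Il1rl2 and Il18rap fell, Il18r1 rose, and Il1rl1, which ends less than 1 kb from Il18r1, was not called. Outside the cluster, Map4k4 was lower at -1.45 (limma adjusted p = 1.05e-06) and Slc9a2 at -0.87 (adjusted p = 0.00315), while Creg2 and Mfsd9 differed by 0.54 and 0.26 and were not called. Il18r1 and Creg2 were near the floor in the controls, at means of -0.13 and 0.12 log2 CPM. A change confined to this stretch of the chromosome was not tested. With the chromosome 1 median removed, Il1r1 (-1.11), Il1rl2 (-1.60), Il18rap (-1.09) and Il18r1 (2.06) all stayed called in the same directions, Creg2 became called higher (0.87, adjusted p = 0.0489) and Mfsd9 stood at 0.58 (adjusted p = 0.0553). Il1a and Il1b lie within 71.6 kb of each other on chromosome 2, where Slc20a1 on one side was lower at -0.99 (adjusted p = 0.00142) and Sirpa on the other was higher at 0.72 (adjusted p = 0.00468), while Ckap2l and Stk35os1 were not called at -0.067 and -0.38. Of the nearest tested genes around Il1rn, which rose, Psd4 was higher at 1.15 (limma adjusted p = 0.000789) and Hnmt at 1.70 (adjusted p = 0.000814). Ehmt1 was lower at -0.30 (adjusted p = 0.0186) and Spopl was not called at -0.13. Relative to the start of Il1rn, Psd4 begins at 30.7 kb and Ehmt1 at 453.9 kb, while Hnmt ends at -287.1 kb and Spopl at -764.7 kb. The control mean of Hnmt was -0.55 log2 CPM, under 1 CPM, so it passed the filter in part through the knockout tumors.

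**Figure D3:**
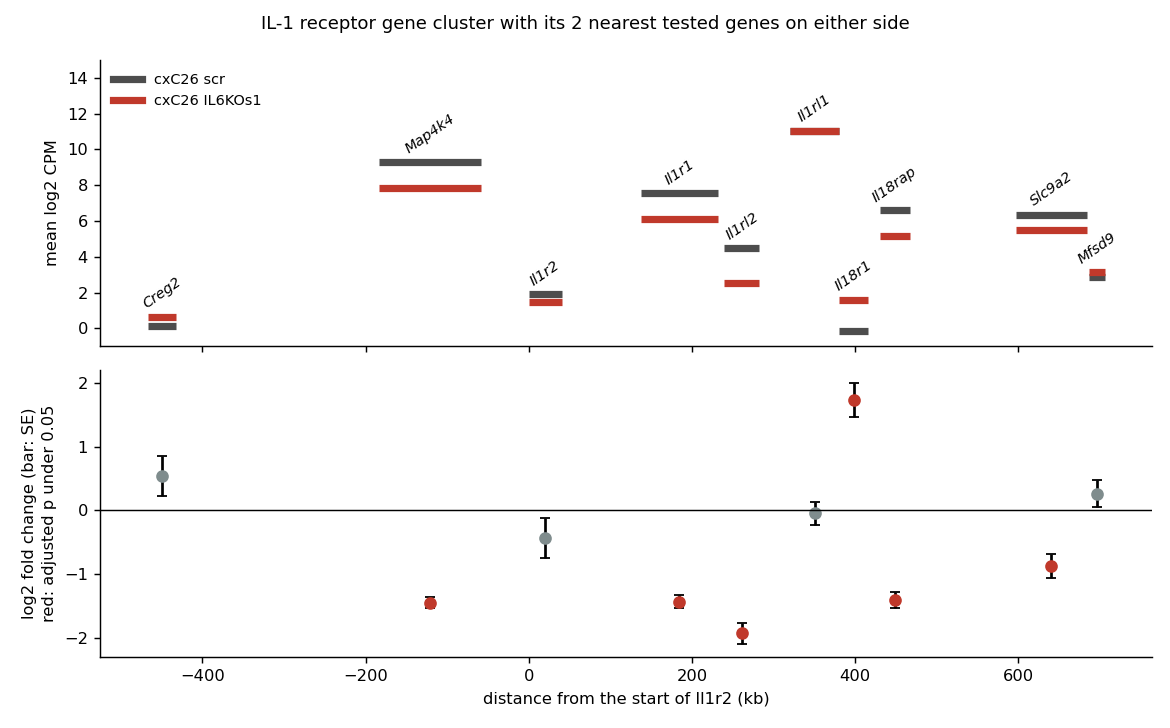
The IL-1 receptor gene cluster and the 2 nearest tested genes on either side, by distance from the start of Il1r2 in kb. Upper panel, mean log2 CPM of the cxC26 scr (gray) and cxC26 IL6KOs1 (red) tumors, each bar drawn over the length of its gene; at Il1rl1 the bars coincide. Lower panel, log2 fold change with its SE, red where the limma adjusted p was under 0.05. Il18r1 alone is called above 0, between Il1rl1 near 0 and Il18rap below 0.

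Ligands and receptors were also compared with their partner or inhibitor within each tumor, as a difference of log2 CPM, in 4 pairs. For Il1rn against Il1b the difference was -1.25, -1.73, -2.19 and -2.60 in the control tumors and -1.19, 0.24, 0.14 and -0.40 in the knockout tumors. The mean was 1.64 higher in the knockout tumors on the log2 scale, and the groups did not overlap, although knockout tumor 1 lay only just above control tumor 1. For Il1rl1 against Il33 the difference was 5.35, 4.96, 5.001 and 4.98 in the controls and 6.65, 7.31, 7.04 and 7.10 in the knockout tumors, a mean 1.95 higher with no overlap. Both pairs had the smallest p-value that the two-sided exact permutation test allows here (p = 0.0286). Their adjusted p over the 4 pairs was 0.0571, so neither passed the threshold after adjustment. With both at that floor and the other pairs above it, the adjusted p could not be lower, so this test decides neither pair. Il1rl1 itself differed by -0.046, so its pair mostly restates the decrease of Il33 (-1.997). The decoy Il1r2 against Il1r1 differed by 1.00 with overlapping groups (exact permutation p = 0.0571, adjusted p = 0.0762). Il18bp against Il18 differed by -0.59 (exact permutation p = 0.257, adjusted p = 0.257), with knockout tumor 1 the highest and knockout tumor 2 the lowest of the 8. Without knockout tumor 1 the adjusted p was 0.0381 for Il1rn against Il1b (1.94), for Il1rl1 against Il33 (2.07) and for Il18bp against Il18 (-0.97). There, these pairs all sat at the smallest p-value the permutation test allows, and their number set the adjusted p.

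**Figure D4:**
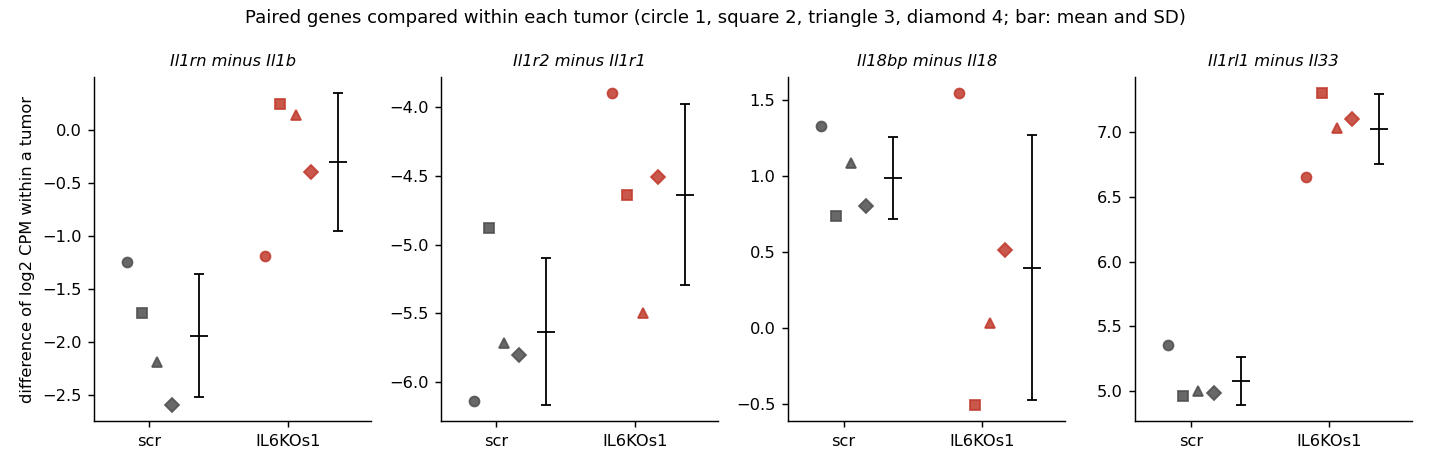
Difference of log2 CPM within each tumor (vertical axes, each on its own scale) for 4 pairs of genes in the cxC26 scr (gray) and cxC26 IL6KOs1 (red) tumors, with the mean and SD of each group in black. The groups are apart for Il1rn minus Il1b and for Il1rl1 minus Il33, and overlap for the other 2 pairs.

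Per kb of exon, levels could be compared between genes, but only roughly. The length was that of all annotated exons of a gene together, while the transcripts in use and the annotation of the counts are not known. In the control tumors Il1rl1 stood first at 312 ± 34.5 CPM per kb (SD, n = 4). Il1r1 at 30.9, Il1rap at 28.6 and Il33 at 24.2 CPM per kb followed, each overlapping in range with the next, and then Il1b at 13.3. Il1r2 at 2.78, Il18 at 1.78 and Il1rn at 1.73 overlapped in turn, and Il18r1 at 0.187 and Il1a at 0.089 CPM per kb were the lowest. In the knockout tumors Il1rl1 was again first, at 309 ± 72.6 CPM per kb (SD, n = 4). Il1rap at 26.0, Il1b at 14.4 and Il1r1 at 11.5 CPM per kb came next and overlapped in turn. The place of Il1b rests on knockout tumor 1, at 38.9 CPM per kb, and the mean of the other 3 was 6.28 CPM per kb, below that of Il1r1. Il33 at 6.09, Il1rn at 4.43, Il18 at 2.84 and Il1r2 at 2.04 CPM per kb did so as well, above Il18r1 at 0.63 and Il1a at 0.215. Il33, above Il1b without overlap in the controls, overlapped with it in the knockout tumors.

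For the 8 members whose mean was 1 log2 CPM or more, the genes whose deviations from the group means were most alike over the 8 tumors are given as a description, since the tumors share depth and knockout tumor 1 weighs heavily in them. Il1b went most closely with Trim21 (Pearson r = 0.984), Alkbh1 and B3gnt2. Il1rn went with Gpr132 (r = 0.965), Lilrb4b and Il2ra, and Il18 with the myeloid lectin genes Clec4d and Clec7a (both r = 0.963) and with Cyrib. Il1rl1 went with Rspry1 (r = 0.982), with the mast cell tryptase gene Tpsb2 (r = 0.979) and with Baalc. Tpsb2 had 75 reads in knockout tumor 1 and 530 to 589 in the others, so both genes were low in the same knockout tumor. Il33 went with Lpgat1 (r = 0.988) and Cep68, Il1r1 with Serhl (r = 0.979), Ttc32 and Aplp2, Il1r2 with Spdl1 (r = 0.974), Mphosph6 and Xpo1, and Il1rap with D16Ertd472e (r = 0.983), Fyttd1 and Alkbh8. Among the members themselves, Il1b and Il1rn deviated together (r = 0.833), as did Il33 and Il1r1 (r = 0.853), and Il1b and Il1rl1 deviated in opposite directions (r = -0.927).

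The next genes process and release IL-1 family cytokines. Of 15 tested, 4 were called higher and 1 lower, a share near the 39.8% of all genes, with a median log2 fold change of 0.090. The inflammasome sensor Nlrp1b was higher at 1.31 (limma adjusted p = 0.00132), the adaptor Pycard at 1.07 (adjusted p = 0.00283) and Ninj1, which ruptures the plasma membrane of dying cells, at 0.99 (adjusted p = 0.000116). Nlrp1b had 13 reads, under 1 CPM, in control tumor 3, so it needed a knockout tumor to pass the filter. The calpain gene Capn1 was the fourth, at 0.40, and is named after its value was seen. Capn2, a calpain subunit of the kind that cuts IL-1 alpha, was lower at -0.75 (adjusted p = 0.000816). Casp1 and Nlrp3 were not called, at -0.25 and -0.058, and are named after their values were seen.

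Of 18 genes of signalling from the receptors, all tested, 4 were called higher and 3 lower, again near the share of 39.8% among all genes, with a median of 0.11. Irak3, an inhibitory member of the IRAK kinases, was higher at 1.41 (limma adjusted p = 0.00337), Irak2 at 1.02 (adjusted p = 0.00136) and Ikbkg, the regulatory subunit of the IKK complex, at 0.58 (adjusted p = 0.00228). Irak3 had 14 reads, under 1 CPM, in control tumor 4, so it needed a knockout tumor to pass the filter. The adaptor Myd88, named after its value was seen, was higher at 0.36. The ubiquitin ligase gene Peli1 was lower at -0.70 (adjusted p = 0.000186), Tollip, an adaptor that dampens the pathway, at -0.45 (adjusted p = 0.00264) and the kinase gene Map3k3 at -0.30 (adjusted p = 0.0277). With the chromosome medians removed, Tollip and Map3k3 were no longer called (adjusted p = 0.126 and 0.244). Map3k3 also lost its call without a filter, under quantile normalization, without the trend and in 4 of the 8 fits that leave out a tumor.

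Genes that IL-1 induces in many cell types went both ways. Of 17 tested, 6 were called higher and 3 lower, beside 39.8% of all genes, with a median of 0.18. Lcn2, which binds bacterial siderophores, was higher at 1.81 (limma adjusted p = 0.000308), and the monocyte chemokine genes Ccl2 and Ccl7 were higher at 1.74 (adjusted p = 5.90e-05) and 1.34 (adjusted p = 0.00143). The matrix protease genes Mmp3 and Mmp13 were lower at -2.75 (adjusted p = 4.18e-05) and -1.85 (adjusted p = 0.00935), and Ptges, a prostaglandin E2 synthase gene, at -0.87 (adjusted p = 9.75e-05). Mmp3 had 3311, 4859, 6133 and 7356 reads in the control tumors and 1196, 471, 993 and 556 in the knockout tumors. These genes also respond to other cytokines, and no member's share in their levels was tested.

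**Figure D5:**
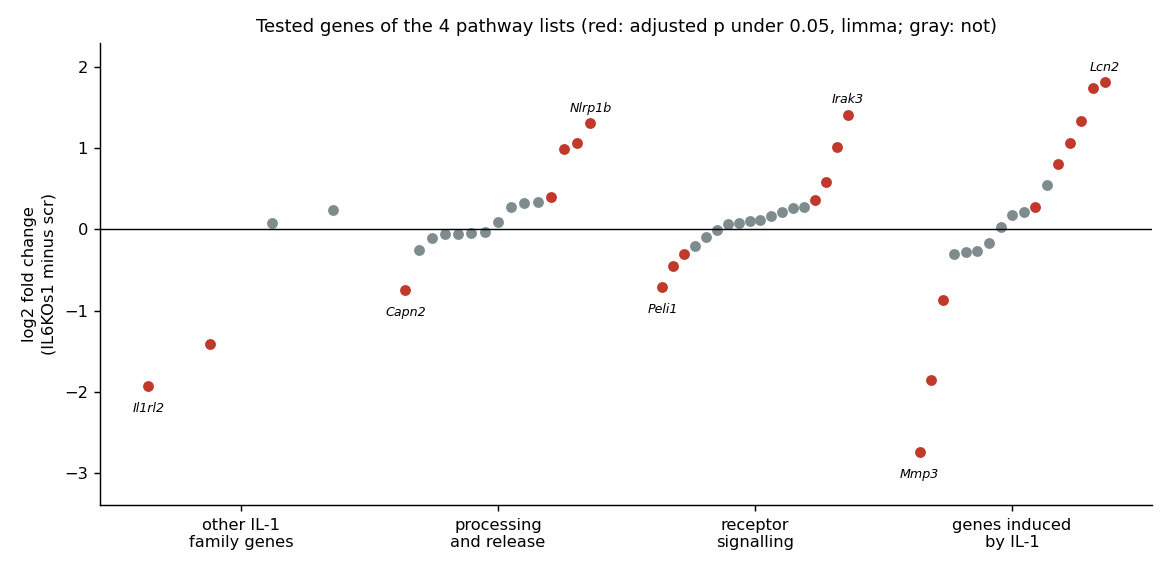
Log2 fold change (vertical axis, cxC26 IL6KOs1 minus cxC26 scr) of every tested gene in the 4 pathway lists, sorted within each list. Red points had a limma adjusted p under 0.05, and the called gene at either end of a list is named. Each of the 3 longer lists holds called genes on both sides of 0.

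The calls on the other cell markers are to be read beside the 39.8% of all genes tested that were called, 19.1% higher and 20.7% lower. Genes of neutrophils, a known source of IL-1 beta and of the decoy Il1r2, gave no common direction. Of 4 tested, S100a8 was called higher at 0.97 (limma adjusted p = 0.00282) and Mmp8, named after its value was seen, lower at -1.34 (adjusted p = 0.0361). The summed level of the 9 neutrophil markers overlapped between the groups, at 11.8 to 23.9 CPM against 17.5 to 31.5 CPM, and Ly6g had 0 reads in 6 of the 8 tumors. Of 7 fibroblast markers, cells known to carry IL1R1 and to make IL-33, 1 was called higher and 3 lower. Thy1 was lower at -2.21 (limma adjusted p = 9.74e-07), Pdgfra at -0.78 and Pdpn at -0.49, and Lum was higher at 1.01. All of these are named after their values were seen. The summed fibroblast markers overlapped at 4461 to 6475 CPM against 3454 to 4997 CPM. Col1a1 and Col1a2, the most abundant in that sum, were not called. The 5 endothelial markers were not called in either direction. Of 3 regulatory T cell and ILC2 genes tested, cells that respond to IL-33, none was called by limma, although Il7r came close at an adjusted p of 0.0506. Among 6 dendritic cell genes 1 was tested, Zbtb46, which was lower at -2.42, while the other 5, under the filter, each had more reads over the knockout tumors than over the controls (Ccr7, for example, 110 against 33). Of 2 B and plasma cell genes tested Jchain was higher at 4.91 and Cd79a was not called. Jchain had at most 15 reads in any control tumor and passed the filter only through the knockout tumors. It had 957 reads in knockout tumor 1 and 62 to 264 in the other knockout tumors. The single keratinocyte gene tested, Krt10, was not called. Of 4 epithelial genes tested, Krt18 was higher at 3.20 and Cdh1 at 1.46, Cdx2 was lower, with 107 reads over the controls and 1 over the knockout tumors, and Krt20 differed by 0.21 (adjusted p = 0.102), or by 0.36 and called with the chromosome medians removed (adjusted p = 0.0120). Cdh1 and Cdx2 are named after their values were seen. Cdx2 and Mmp8 passed the filter through the control tumors, the group in which they were high. Whether carcinoma, stromal or immune cells carried the differences in Il33 and Il1r1 cannot be told from these libraries.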

How the data were processed

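Tumors were frozen, and poly(A) RNA libraries were sequenced in pairs of 150 bp. After trimming (Trimmomatic), alignment to mm10 (Hisat2) and gene counting (featureCounts), the authors deposited log2 CPM made by limma-voom for 27179 genes and 8 tumors. The annotation and the strand setting are not given in the sources used here. The submitters' processing notes name bcl2fastq 2.17. Whole reads were recovered by inverting the log2 values, with an offset of 0.5 reads, at each tumor's lowest value, and 100% came out whole within 0.05. Totals were 14158989 to 17048062 reads, which limits genes with few reads.

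Groups and numbers came from sample titles. Nothing says whether the tumors with the same number share a day or batch, so p-values measure the spread between these tumors. limma 3.58.1 in R 4.3.3 (lmFit, eBayes with a mean-variance trend) was fitted to the deposited log2 CPM of the 13262 genes that reached 1 CPM in 4 or more tumors. No covariate was used. Benjamini-Hochberg adjustment covered all genes tested, with a threshold of 0.05. For ratios and Il1a a two-sided exact permutation test was used (scipy 1.17.1). CPM per kb used GENCODE M21 exon lengths. Motif windows and positions came from RefSeq GRCm38.p6, which matched all 12 genes searched. No protein sequences were used here. The limma fit was tested on simulated data, in which far fewer genes were changed than were called here.

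The members and lists were chosen with earlier results of these data known. The genes the text names came from a rule: all members, from each pathway list up to 3 genes called in each direction by size and every measured other family gene, the 2 marker genes of highest mean per list, Il6, the 2 nearest tested genes on either side of each locus, and the 3 genes most like each member, of which 1 is not reported here. Not every marker gene that the rule allows is named. Genes outside this rule are said to be so or are given as counts of reads. The alternatives were no filter, a stricter filter (mean of 3 log2 CPM or more), quantile normalization, median re-centring, a pseudocount of 1 CPM, no trend, voom weights on recovered reads, the replicate number as a block, removal of each chromosome's median, and each tumor left out.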

Additional observations from a re-analysis of the deposited data

Results flagged for a closer look

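In 3 of 36 groups of 4 tumors examined, 1 tumor lay far from the other 3 relative to the range of the group (Dixon's criterion at the 95% level), where chance gives about 1.8 such groups. Knockout tumor 1 was far below the other knockout tumors for Il1rl1, at 10.42 log2 CPM against 11.17 to 11.26. Control tumor 3 was above the other controls for Il1rl2, at 4.83 log2 CPM against 4.32 to 4.38. Control tumor 1 was above the other controls for the difference of Il1rl1 and Il33, at 5.35 against 4.96 to 5.001. The decreases of Il1rl2 and Il33 were called with each of these tumors left out.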

How the results depend on the processing

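Of 858 alternative values over 53 results, 807 kept their direction and their side of the threshold or, for counts of genes, stayed near the main count. Il1r1, Il33 and Il18r1 kept their calls and directions in every alternative that could be fitted. Of the members, 3 were called higher, against 1 without a filter, 0 of the 5 members left under the stricter filter, and 1 to 3 with each tumor left out (1 without control tumor 4). In the pathway and cell type lists 44 genes were called higher, and 22 under the stricter filter, which tests fewer genes. Il1rn lost its call without a filter (adjusted p = 0.0660). Il18bp turned negative under quantile normalization (-0.070) and without knockout tumor 1 (-0.44). Il1rl1 turned positive with the chromosome median removed (0.28), without control tumor 1 (0.025) and without knockout tumor 1 (0.15), and Il1rap without knockout tumor 2 (0.0089). None of these reversed values was called by limma, and the cause was not tested. With each tumor left out, Il18bp ranged from -0.44 to 0.38, Il1rl1 from -0.13 to 0.15, Il1rap from -0.30 to 0.0089, Il1rn against Il1b ranged from 1.42 to 1.94, Il18bp against Il18 from -0.97 to -0.29, and Il1rl1 against Il33 from 1.86 to 2.07. Il1a passed the permutation threshold only without knockout tumor 3 (1.31, p = 0.0286). Tumors with the same number did not deviate together (r between -0.0593 and 0.057), and nothing in the labels ties them, so the numbers were not taken as pairs. With the replicate number as a block, 2 members were called higher and 2 lower, Il18 losing its call (adjusted p = 0.0699), and over all genes 2477 were higher and 2688 lower, against 2529 and 2748. Filters, trend, weights and the block do not apply to the ratios. The mean of Il1b per kb without knockout tumor 1 was added after seeing the data. The depth leaves Il1a, Il36g and Il36b at the limit of counting.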
